A study of Mus musculus with 24 samples.

Results

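The collagen chain genes of the mouse kidney were examined after myocardial infarction (MI). They were taken as all genes of the deposited count table whose symbol, looked up from the Ensembl identifier, consists of Col, a number, the letter a and a second number. This gave 44 genes of the 56941 in the table. Of these, 29 had a mean of 1 or more CPM (counts scaled to the total of each library) over the 22 kidneys used and are described gene by gene, while 15 were below this level. Just inside this limit was Col20a1 with a mean of 1.34 CPM, and just outside it was Col6a5 with 0.779 CPM. Enough counts for a test were present for 24 of the 44 genes, and all 24 belong to the 29 that are described.

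Kidneys came from wildtype male C57BL/6 J mice, which were 8 to 11 weeks old at surgery. The left anterior descending coronary artery (LAD) was permanently ligated, and kidneys were collected 5d or 28d later. Mice of the sham group were operated on with the artery not tied, and their kidneys were collected at 5d and served as the control for both times. The comparisons rest on 8 sham kidneys, 8 kidneys at 5d post-MI and 6 kidneys at 28d post-MI. The sham kidneys sequenced were all from 5d, so the effect of infarction and that of the longer time since surgery, including the greater age of the mice, cannot be told apart at this time. Whole kidney RNA was sequenced, and fewer cells of a type cannot be told apart from less RNA per cell. The labels give no batch, and p-values measure the spread between these kidneys.

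Collagens are proteins of the extracellular matrix in which 3 chains wind into a triple helix, and each chain is the product of its own gene. Fibrillar collagens form the cable-like fibrils of connective tissue, with types I and III as the bulk of the fibril and type V as a minor component that sets fibril initiation and width. Type IV collagens form the sheet-like network of basement membranes, on which the tubules and the capillaries of the glomerulus rest, and the chains encoded by Col4a3, Col4a4 and Col4a5 make up the network of the mature glomerular basement membrane. Type VI collagen forms beaded filaments around cells, and the smaller classes attach to fibrils, sit in the plasma membrane or lie in basement membrane zones.

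Libraries were made by Massive Analysis of cDNA Ends (MACE), which reads the 3′ ends of polyadenylated mRNA and tags each molecule with a unique molecular identifier. Total counts per kidney were between 2280618 and 3786275. All 44 genes together took between 0.0730% and 0.0954% of the counts of a kidney. Levels are CPM after TMM normalization and were not divided by transcript length, so collagen chain genes were not ranked by level. The 8 markers of kidney tubules summed to between 6865 and 8095 CPM in every kidney. Markers of the adrenal cortex, which lies next to the kidney, summed to 734 and 552 CPM in sham replicates 2 and 6 and to 67.0 CPM in 5d replicate 5, against at most 3.96 CPM in the other kidneys, and results that rest on these 3 kidneys were recomputed without them.

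**Figure D1:**
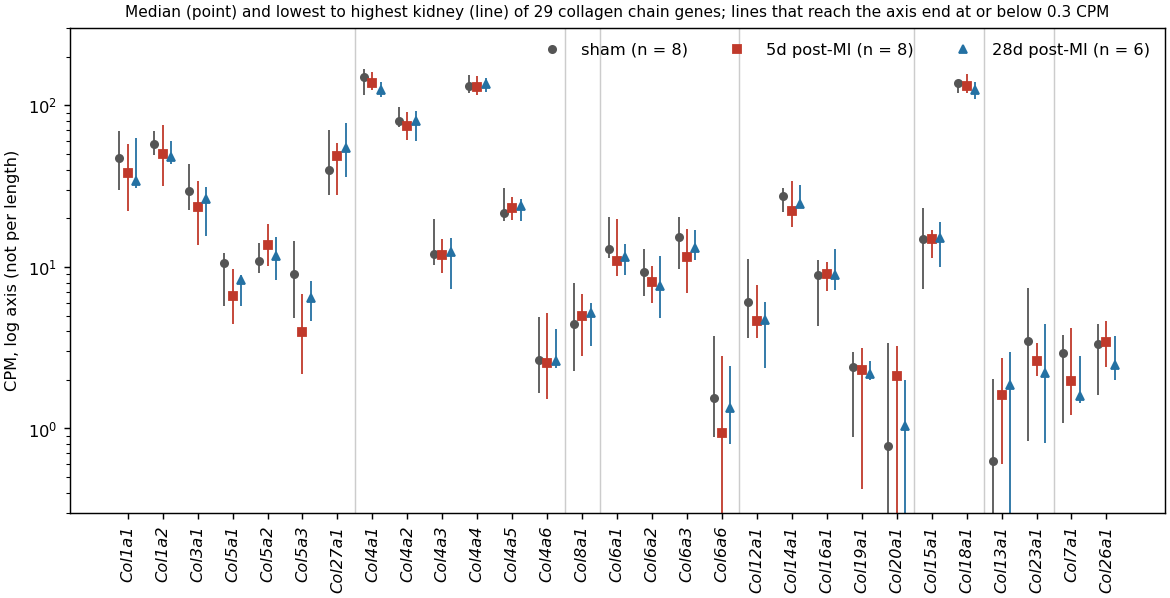
Levels of the 29 described collagen chain genes on a logarithmic CPM axis, with 1 mark for the median and 1 line from the lowest to the highest kidney of each group (sham n = 8, 5d post-MI n = 8, 28d post-MI n = 6). The groups of Col4a4 lie close together with medians of 131, 129 and 136 CPM, whereas the median of Col5a3 is 9.06 CPM in sham kidneys, 3.94 CPM at 5d and 6.43 CPM at 28d.

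Of the 24 tested genes only Col5a3 passed the test at 5d post-MI, where it was lower than in sham kidneys. Col5a3 (ENSMUSG00000004098) lies on the minus strand of chromosome 9 from 20770050 to 20815067 in GRCm38 and encodes the chain that joins the Col5a1 and Col5a2 products in some type V trimers. Its chain partner Col5a1 (ENSMUSG00000026837) lies on the plus strand of chromosome 2 from 27886425 to 28039514. The 250 bases before the start of each of these genes are shown because Col5a3 was the called gene and Col5a1 is its partner. They are taken from RefSeq (GRCm38.p6) and run 5′ to 3′ on the strand of the gene, at chr9:20815068-20815317 for Col5a3 and chr2:27886175-27886424 for Col5a1. Capitals mark CCAAT and GGGCGG on either strand.
Col5a3: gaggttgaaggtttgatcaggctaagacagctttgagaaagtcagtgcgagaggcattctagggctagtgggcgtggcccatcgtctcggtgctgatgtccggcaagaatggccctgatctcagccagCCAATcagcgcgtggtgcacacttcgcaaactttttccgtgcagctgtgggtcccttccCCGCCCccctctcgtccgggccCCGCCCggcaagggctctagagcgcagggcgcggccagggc
Col5a1: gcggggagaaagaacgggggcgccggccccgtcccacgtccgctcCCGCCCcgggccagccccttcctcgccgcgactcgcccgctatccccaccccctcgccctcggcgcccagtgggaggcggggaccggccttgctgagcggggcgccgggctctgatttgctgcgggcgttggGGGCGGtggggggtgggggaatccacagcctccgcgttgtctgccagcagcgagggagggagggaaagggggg

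The Col5a3 window held 1 CCAAT and 2 copies of GGGCGG, and the Col5a1 window held no CCAAT and 2 copies of GGGCGG. Neither window held TATAAA or TGANTCA, the other motifs searched. The GC content was 62.8% before Col5a3 and 76.4% before Col5a1. A promoter was listed for 23 of the 29 described genes, in a window from 250 bases before to 50 bases after the start. Among these 14 held GGGCGG, 8 held CCAAT, 2 held TATAAA and 1 held TGANTCA, counted on both strands. Among 27025 mouse promoters of the same length, 32.9% held GGGCGG, 34.5% held CCAAT, 13.0% held TATAAA and 6.87% held TGANTCA. These matches are letters in a window and not measured sites.

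At 5d post-MI, 1 of the 24 tested collagen chain genes had an adjusted p under 0.05, compared with 0.0704% of all 12780 genes tested (9 genes). At an unadjusted p under 0.05, 4 of the 24 genes were lower at 5d and 1 was higher, while 3.97% of all genes were lower and 3.92% were higher. The log2 fold change was below 0 for 16 of the 24 genes, and for 49.9% of all genes. The median log2 fold change of the 24 genes was −0.14, and that of all genes tested was 0.00018. None of the 24 genes had values at 5d that lay wholly outside the sham range, as 0.0548% of all genes did.

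The values of Col5a3 in sham kidneys were 4.85 CPM in the lowest, 9.06 CPM in the median and 14.6 CPM in the highest kidney. At 5d post-MI they were 2.17, 3.94 and 6.76 CPM in the same order, and at 28d post-MI 4.66, 6.43 and 8.23 CPM. All 8 kidneys at 5d were below the sham mean and 6 of them were below the lowest sham kidney, so the groups overlapped through the other 2 kidneys at 5d. Mean levels were 8.69 ± 3.04 CPM in sham kidneys (SD, n = 8), 4.11 ± 1.47 CPM at 5d (SD, n = 8) and 6.60 ± 1.31 CPM at 28d (SD, n = 6). In edgeR's quasi-likelihood test Col5a3 fell by 1.02 on the log2 scale at 5d (SE 0.22, 95% interval −1.46 to −0.59, Benjamini-Hochberg adjusted p = 0.0423), which is 0.491 of the sham level. The counts behind these values were low, with 5 to 43 counts of Col5a3 per kidney, and the coefficient of variation among sham kidneys was 35.0%, where counting alone would give 19.5%.

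The call at 5d lay close to its threshold. The adjusted p was lowest without a filter on low counts, at 0.000719, and DESeq2 also called Col5a3 (adjusted p = 0.0112), while limma's voom gave an adjusted p of 0.109, the fit with only the sham and 5d kidneys 0.129 and the fit without the 3 kidneys with adrenal markers 0.105, with a log2 fold change of −0.98, −1.02 and −1.11 in this order. When 1 kidney at a time was left out, the log2 fold change was between −1.18 and −0.88, and 4 of the 22 fits kept an adjusted p under 0.05, which were those without sham replicate 4, sham replicate 8, 5d replicate 1 or 5d replicate 5. Leaving out any other kidney ended the call, with an adjusted p of at most 0.155. Over all genes, these 4 fits called 3, 8, 38 and 13 genes at 5d in this order, and the other fits called 1 to 7. The main fit called 9, the fit without a filter on low counts 80 and DESeq2 36.

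**Figure D2:**
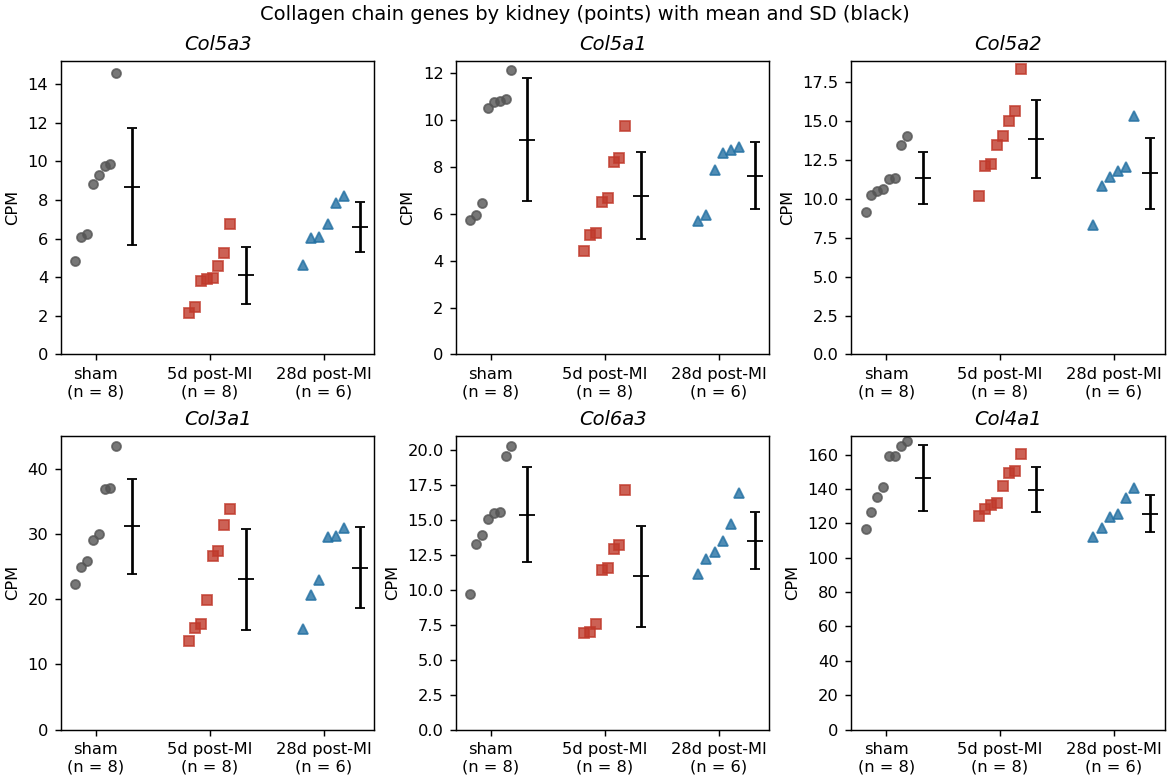
Each point is the CPM of 1 kidney for Col5a3, Col5a1, Col5a2, Col3a1, Col6a3 and Col4a1, with the mean and SD of the group in black. For Col5a3, 6 of the 8 kidneys at 5d post-MI lie below the lowest sham kidney of 4.85 CPM, whereas Col5a2 has its highest kidney, at 18.4 CPM, in the 5d group.

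Marker lists of other cells and states had different summed levels in the same groups, although at 5d only red blood cell genes among them passed the test. The 9 immediate early genes, which are induced within minutes by many stimuli, summed to between 699 and 1685 CPM in sham kidneys (median 1331) and to between 179 and 803 CPM at 5d (median 497), and to between 1131 and 2725 CPM at 28d (median 1581). All 9 had a negative log2 fold change at 5d with an unadjusted p under 0.05 and none passed the test, with a lowest edgeR adjusted p of 0.0980. The 8 white adipocyte markers summed to between 412 and 2034 CPM in sham kidneys (median 1206), to between 207 and 1483 CPM at 5d (median 1081) and to between 404 and 1015 CPM at 28d (median 563), and none of the 7 tested genes of this list passed the test at 5d, with 2 lower at an unadjusted p under 0.05. Fibroblast markers, 7 in number, had medians of 56.4 CPM in sham kidneys, 46.5 CPM at 5d and 47.3 CPM at 28d, and the 5 myofibroblast markers 101, 85.6 and 84.0 CPM. At 5d, 0 of 4 tested fibroblast genes and 2 of 4 tested myofibroblast genes were lower at an unadjusted p under 0.05, and none passed the test. Medians in sham kidneys and at 5d were 138 and 121 CPM for the 6 pericyte and smooth muscle markers, of which 3 were lower at an unadjusted p under 0.05. They were 40.8 and 21.3 CPM for urothelium, 161 and 114 CPM for brown adipocytes and 16.0 and 12.3 CPM for leukocytes, and no gene of these lists passed the test. The 5 red blood cell markers summed to between 2200 and 4124 CPM in sham kidneys (median 3652) and to between 4968 and 19089 CPM at 5d (median 8791), and all 4 tested genes of this list were called higher. With the white adipocyte score as a covariate the log2 fold change of Col5a3 at 5d was −0.79 (adjusted p = 0.328), and with the immediate early score it was −0.60 (adjusted p = 0.99998, unadjusted p = 0.0742). Over all genes these fits called 1 and 0 genes at 5d in this order, compared with 9 without a covariate. The immediate early sums of the 2 groups hardly overlapped, so that fit cannot tell the score apart from the group. Whether these cells or states had a part in the level of Col5a3 was not tested. Every marker had counts in at least 1 kidney in the fibroblast, white adipocyte and immediate early lists.

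**Figure D3:**
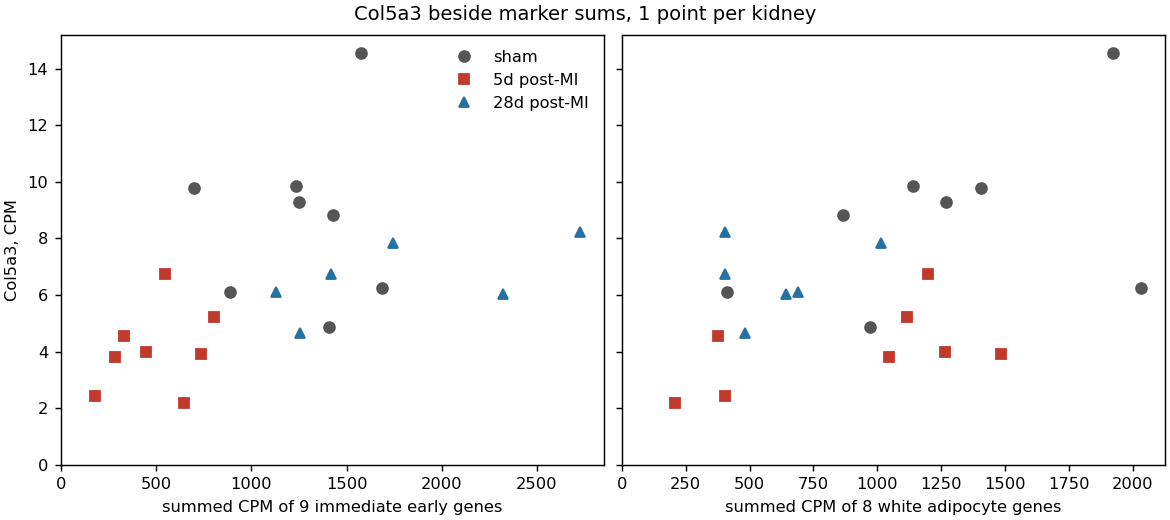
Col5a3 in CPM against the summed CPM of 9 immediate early genes (left) and 8 white adipocyte genes (right), with 1 point per kidney. The 8 kidneys at 5d post-MI lie at or below 6.76 CPM of Col5a3 and at or below 803 CPM of immediate early genes, while they spread from 207 to 1483 CPM of white adipocyte genes.

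At 28d post-MI Col5a3 did not pass the test against the same sham kidneys, with a log2 fold change of −0.36 (SE 0.22, 95% interval −0.81 to 0.09, edgeR adjusted p = 0.685). All 6 kidneys at 28d were below the sham mean and 1 was below the lowest sham kidney. Between the times, Col5a3 was at a log2 fold change of 0.66 at 28d against 5d (SE 0.25, 95% interval 0.16 to 1.16, unadjusted p = 0.0106 and adjusted p = 0.340 in edgeR), so the difference between the times did not pass the threshold. In this comparison all 9 immediate early genes were higher at an unadjusted p under 0.05 and 8 of them were called. Their summed level was at most 803 CPM in every kidney at 5d and at least 1131 CPM in every kidney at 28d. With their score as a covariate the log2 fold change of Col5a3 was 0.10. Score and time cannot be told apart in that fit, which called 0 of all genes, compared with 53 in the main fit. Their part in the level of Col5a3 was not tested. For Col5a3 all 6 kidneys at 28d were above the 5d mean and 2 were above the highest kidney at 5d.

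The other type V chains did not pass the test and had values on either side of sham. Col5a1 encodes the chain found in nearly all type V trimers, and its sham kidneys had 5.75 CPM in the lowest, 10.6 CPM in the median and 12.1 CPM in the highest. At 5d its values were 4.41, 6.58 and 9.73 CPM, and at 28d 5.69, 8.24 and 8.85 CPM. Of the 8 sham kidneys, 5 were above every kidney at 5d and the other 3 lay within the 5d range. Its log2 fold change at 5d was −0.45 (SE 0.18, 95% interval −0.82 to −0.08, edgeR adjusted p = 0.522) and at 28d −0.27 (95% interval −0.67 to 0.13). Col5a2 encodes the remaining type V chain and had sham values of 9.14, 10.9 and 14.1 CPM against 10.2, 13.7 and 18.4 CPM at 5d. Its log2 fold change was 0.29 at 5d (SE 0.13, 95% interval 0.02 to 0.55, edgeR adjusted p = 0.587), and 7 of the 8 kidneys at 5d were above the sham mean. At 28d Col5a2 was at 0.04 (95% interval −0.26 to 0.34).

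The chains of types I and III, which make up most of a fibril, lay below the sham mean in most kidneys of mice with MI and did not pass the test. Col3a1, the chain of type III collagen, had sham values of 22.4, 29.6 and 43.6 CPM in the lowest, median and highest kidney, against 13.7, 23.3 and 33.9 CPM at 5d. Of the 8 kidneys at 5d, 4 lay below the lowest sham kidney and 6 below the sham mean. The log2 fold change of Col3a1 was −0.44 at 5d (SE 0.20, 95% interval −0.85 to −0.04, edgeR adjusted p = 0.590) and −0.32 at 28d (95% interval −0.76 to 0.13). Col1a1 and Col1a2, which encode the chains of type I collagen, were at −0.40 (95% interval −0.84 to 0.03) and −0.20 (95% interval −0.46 to 0.05) at 5d. At 28d Col1a1 was at −0.32 and Col1a2 at −0.23, and 5 of 6 kidneys were below the sham mean for each. Col27a1, a fibrillar chain best known from cartilage, was at 0.08 at 5d and at 0.26 at 28d (95% interval −0.17 to 0.70), with values between 27.8 and 77.3 CPM over all kidneys.

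As a class, the 7 tested fibrillar genes had a median log2 fold change of −0.40 at 5d and −0.27 at 28d, beside medians of 0.00018 and −0.0012 over all genes. At each time 5 of the 7 were negative. The summed level of the 11 fibrillar genes was 213 ± 24.2 CPM in sham kidneys (SD, n = 8), 184 ± 34.7 CPM at 5d (SD, n = 8) and 194 ± 14.2 CPM at 28d (SD, n = 6), and the ranges of the 3 groups overlapped. The cartilage chains Col2a1, Col11a1 and Col11a2 and the minor fibrillar chain Col24a1 were among the 15 genes with a mean below 1 CPM.

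**Figure D4:**
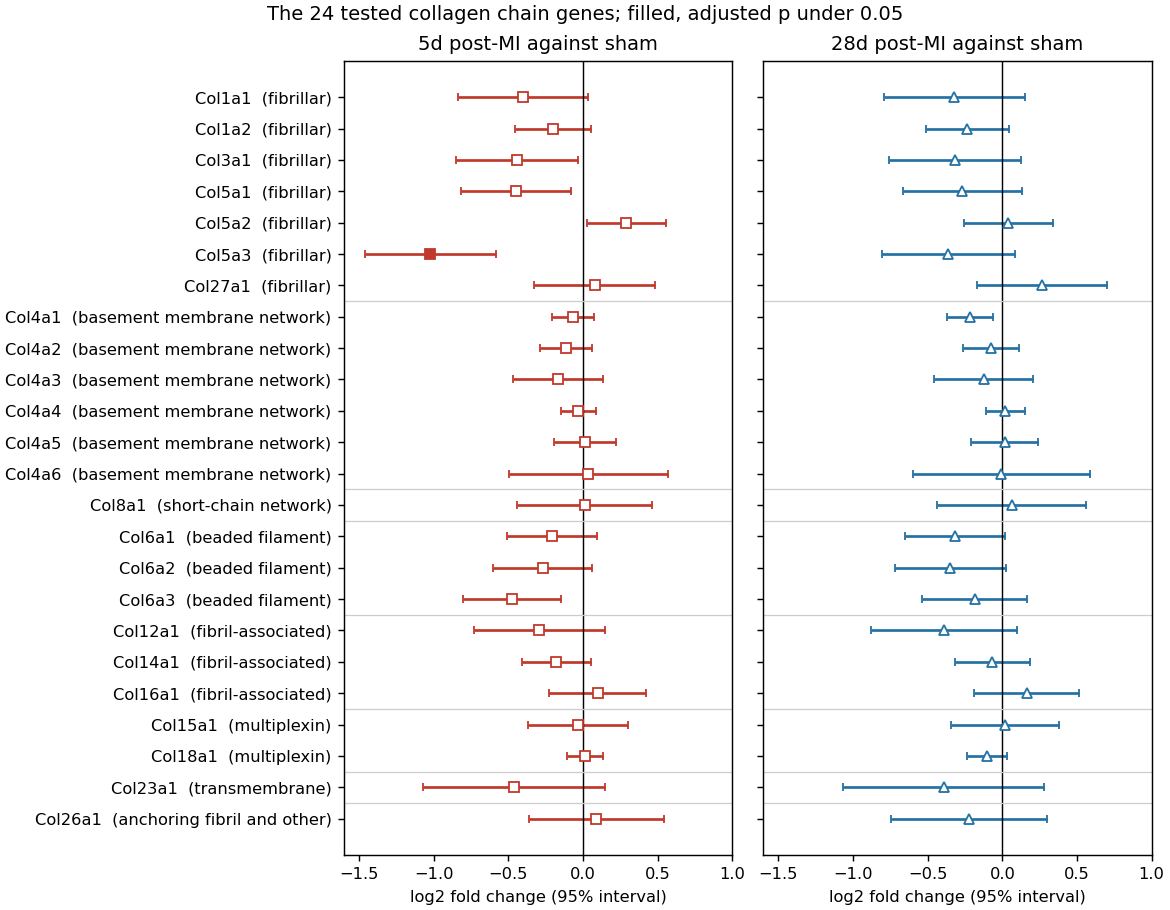
Log2 fold change with its 95% interval from edgeR for the 24 tested genes, at 5d (left) and 28d post-MI (right) against the same 8 sham kidneys, ordered by class. The filled mark is Col5a3 at 5d with a log2 fold change of −1.02, and no gene is filled at 28d.

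Type IV genes, the collagens of basement membranes, did not pass the test at either time. The 6 genes had log2 fold changes between −0.17 and 0.03 at 5d with a median of −0.05, and none had an unadjusted p under 0.05. The narrowest interval of the 6 was that of Col4a4, at −0.03 (95% interval −0.15 to 0.09) with sham values of 120, 131 and 155 CPM and 5d values of 116, 129 and 152 CPM. The chain partners Col4a3 and Col4a5 were at −0.17 (95% interval −0.47 to 0.13) and 0.01 (95% interval −0.19 to 0.22) at 5d, and at −0.12 and 0.01 at 28d. Col4a6, whose product is found in the basement membranes of collecting ducts and smooth muscle, was at 0.03 at 5d and −0.01 at 28d from 5 to 17 counts per kidney.

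Among the 24 tested genes Col4a1 had the lowest p at 28d post-MI. This gene (ENSMUSG00000031502) lies on the minus strand of chromosome 8 from 11198423 to 11312826 in GRCm38 and encodes a chain that most basement membranes share. Its values were 116 CPM in the lowest, 150 CPM in the median and 168 CPM in the highest sham kidney, 124, 137 and 161 CPM at 5d, and 112, 125 and 140 CPM at 28d. All 6 kidneys at 28d were below the sham mean and 1 was below the lowest sham kidney, so the groups overlapped. The log2 fold change at 28d was −0.22 (SE 0.08, 95% interval −0.37 to −0.06), with an unadjusted p of 0.00655 and an edgeR adjusted p of 0.364. At 28d against 5d it was −0.15 (95% interval −0.30 to 0.00, adjusted p = 0.562). Its partner Col4a2 was at −0.07 at 28d (95% interval −0.26 to 0.11).

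At 28d post-MI none of the 24 genes passed the test, in edgeR as in DESeq2 and limma's voom, and 0.0235% of all genes did so in edgeR. At an unadjusted p under 0.05 only Col4a1 was lower and no gene was higher, beside 4.23% of all genes that were lower and 4.45% that were higher. A negative log2 fold change was found for 17 of the 24 genes, compared with 50.4% of all genes, and the median of the 24 genes was −0.15. No gene of the 24 had groups without overlap, as against 0.258% of all genes. Since the sham kidneys are the same in both comparisons, the signs at 5d and 28d are not independent of each other.

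Comparing 28d with 5d post-MI directly, none of the 24 genes passed the test in edgeR, DESeq2 or voom, while 0.415% of all genes did in edgeR. Col5a3 was the only gene at an unadjusted p under 0.05, and it was higher at 28d, as were 5.03% of all genes, while 4.01% of all genes were lower. Negative log2 fold changes were found for 9 of the 24 genes, beside 51.4% of all genes, and no gene had groups without overlap, beside 0.344%. The median of the 24 genes was 0.05. The gene with the lowest p after Col5a3 and Col4a1 was Col18a1 (ENSMUSG00000001435), which encodes the precursor of endostatin and is found in basement membranes. It had 118, 138 and 143 CPM in the lowest, median and highest sham kidney, 118, 131 and 156 CPM at 5d and 109, 124 and 139 CPM at 28d. These ranges overlapped, and the log2 fold change at 28d against 5d was −0.12 (95% interval −0.25 to 0.02, edgeR adjusted p = 0.635).

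Of type VI collagen, 3 chains were measured well enough for a test, and all had negative log2 fold changes at both times. Col6a3 (ENSMUSG00000048126), on the minus strand of chromosome 1 from 90765923 to 90843971, had 9.71 CPM in the lowest, 15.3 CPM in the median and 20.3 CPM in the highest sham kidney. At 5d its values were 6.93, 11.5 and 17.1 CPM, and at 28d 11.1, 13.1 and 16.9 CPM. At 5d 3 kidneys were below the lowest sham kidney and 7 of 8 were below the sham mean. For Col6a3 it was −0.48 on the log2 scale at 5d (SE 0.16, 95% interval −0.80 to −0.15), with an unadjusted p of 0.00554 and an edgeR adjusted p of 0.431. The value was −0.18 at 28d (95% interval −0.53 to 0.16), and with the white adipocyte score as a covariate it was 0.00 at this time. The summed white adipocyte markers had medians of 1206 CPM in sham kidneys and 563 CPM at 28d. Their part in the level of Col6a3 was not tested.

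Col6a1 and Col6a2 encode the shorter chains of the type VI trimer and ranked after Col4a1 by p at 28d. Col6a1 had 11.3, 12.9 and 20.3 CPM in sham kidneys, 8.73, 10.9 and 19.9 CPM at 5d and 8.95, 11.5 and 13.8 CPM at 28d. All 6 kidneys at 28d were below its sham mean, and 3 were below the lowest sham kidney. Its log2 fold change was −0.21 at 5d (95% interval −0.51 to 0.09) and −0.32 at 28d (95% interval −0.65 to 0.02, edgeR adjusted p = 0.608). For Col6a2 the values were 6.63, 9.25 and 13.0 CPM in sham kidneys, 5.96, 8.08 and 10.1 CPM at 5d and 4.86, 7.67 and 11.7 CPM at 28d. Col6a2 was at −0.27 at 5d (95% interval −0.60 to 0.06) and at −0.35 at 28d (95% interval −0.72 to 0.02, edgeR adjusted p = 0.608). Col6a6 had 0 to 11 counts per kidney and was not tested, and its medians were 1.54 CPM in sham kidneys, 0.940 CPM at 5d and 1.33 CPM at 28d. Col6a4 and Col6a5 were below a mean of 1 CPM.

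Fibril-associated collagens bind to the surface of fibrils without forming fibrils of their own. Col12a1 was at −0.29 at 5d (95% interval −0.73 to 0.14) and at −0.39 at 28d (95% interval −0.88 to 0.10), and Col14a1 was at −0.18 and −0.07. Col16a1 was at 0.10 at 5d and 0.16 at 28d (95% interval −0.19 to 0.52). None of them had an unadjusted p under 0.05 at either time. Col19a1, with 1 to 11 counts per kidney, and Col20a1, with 0 to 11, were not tested. Their medians were 2.39, 2.29 and 2.17 CPM for Col19a1 and 0.780, 2.10 and 1.03 CPM for Col20a1 in sham kidneys, at 5d and at 28d. The type IX chains Col9a1, Col9a2 and Col9a3 and Col22a1 were below a mean of 1 CPM.

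Of the multiplexins, collagens of basement membrane zones, Col15a1 was at −0.03 at 5d and 0.02 at 28d. Col18a1 was at 0.01 at 5d (95% interval −0.11 to 0.13) and −0.10 at 28d (95% interval −0.23 to 0.03). It was the steadiest of the tested genes in sham kidneys, with a coefficient of variation of 6.68%, beside 55.4% for Col23a1, the most variable. Counting alone gives 4.88% for Col18a1 and 30.0% for Col23a1.

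Transmembrane collagens span the plasma membrane and shed an outer part. Col23a1 was at −0.46 at 5d (95% interval −1.07 to 0.15) and −0.39 at 28d (95% interval −1.06 to 0.28). All 8 kidneys at 5d were below its sham mean, and none was below its lowest sham kidney. Col13a1 was not tested, with 0 to 9 counts per kidney, and its medians were 0.626 CPM in sham kidneys, 1.60 CPM at 5d and 1.86 CPM at 28d. Col8a1, a short-chain collagen that forms hexagonal networks, was at 0.01 at 5d and 0.06 at 28d. Col26a1 was at 0.09 at 5d and −0.22 at 28d. Col7a1, the chain of the anchoring fibrils beneath epithelia, was not tested and had medians of 2.92 CPM in sham kidneys, 1.97 CPM at 5d and 1.58 CPM at 28d. The other chains of these classes, Col8a2, Col10a1, Col17a1, Col25a1 and Col28a1, were below a mean of 1 CPM. Over the 15 genes below this level, each had 0 counts in 5 to 21 of the 22 kidneys, and a count of 0 in a kidney allows up to 3 counts.

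Chains that meet in a trimer or fibril were then compared kidney by kidney, as deviations of log2 CPM from the group mean over 22 kidneys. The type I chains Col1a1 and Col1a2 varied together, with Pearson's r = 0.82 and Spearman's rho = 0.82 (permutation test within groups with 100000 resamples, two-sided, unadjusted p = 2e-05 for r and 3e-05 for rho, and p = 0.00022 and 0.00033 when adjusted over 11 pairs). Without the 2 kidneys farthest from the median of Col1a1, r was 0.75. Within groups r was 0.65 in sham kidneys, 0.91 at 5d and 0.87 at 28d. Col1a1 and Col3a1 had r = 0.71 and rho = 0.65 (permutation test, unadjusted p = 0.00089 and 0.00267, adjusted p = 0.00490 and 0.0147), and r = 0.66 without the 2 farthest kidneys. Their r within groups was 0.75, 0.85 and 0.38 in the same order. These values come from genes measured in the same libraries, so depth and tissue composition are shared between the genes of a pair.

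Genes that lie head to head on a chromosome were found among the type IV chains. Col4a1 and Col4a2 (11312805 to 11449287, plus strand) start within 22 bases that both gene models share on chromosome 8. They had r = 0.56 and rho = 0.59 (permutation test, unadjusted p = 0.0047 and 0.00437, adjusted p = 0.0172 and 0.0160), with r = 0.61 without the 2 farthest kidneys and 0.44, 0.84 and 0.52 within the groups. Col4a4 (82448423 to 82586849, minus strand) and Col4a3 (82586921 to 82722059, plus strand) are separated by 71 bases on chromosome 1, shown here because both genes start at its ends and yet were not seen to vary together. This stretch is chr1:82586850-82586920 in GRCm38.p6, is printed 5′ to 3′ on the strand of Col4a4 and held none of the 4 motifs, so no letter is in capitals.
Col4a4 to Col4a3: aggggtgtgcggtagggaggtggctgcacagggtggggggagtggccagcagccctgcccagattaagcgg

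For Col4a3 and Col4a4, r was 0.14 and rho 0.17 (permutation test, adjusted p = 0.686 for r and 0.629 for rho), with 0.30, 0.41 and −0.42 within the groups. Col4a3 had 18 to 73 counts per kidney and Col4a4 277 to 522, and an exon of C430014B12Rik on the opposite strand lies within the last 1000 bases of Col4a3, so its reads may not be its own where strand was not used in counting. Among the 29 described genes this was the only one with an exon of another gene in its last 1000 bases. Col4a3 and Col4a5 had r = 0.28 (adjusted p = 0.581).

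In all, 3 of the 11 pairs passed the test and 8 did not. Col5a3 had r = 0.07 with Col5a1 and −0.11 with Col5a2, and Col5a1 had −0.22 with Col5a2 (permutation tests, adjusted p = 0.773, 0.686 and 0.581). Col3a1 and Col5a2, whose genes lie tail to tail 24614 bases apart on chromosome 1, had r = 0.22. Col6a1 had r = 0.23 with Col6a2 and 0.15 with Col6a3. Most of these genes had low counts, and at such counts a weak correlation is not distinguishable from none.

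**Figure D5:**
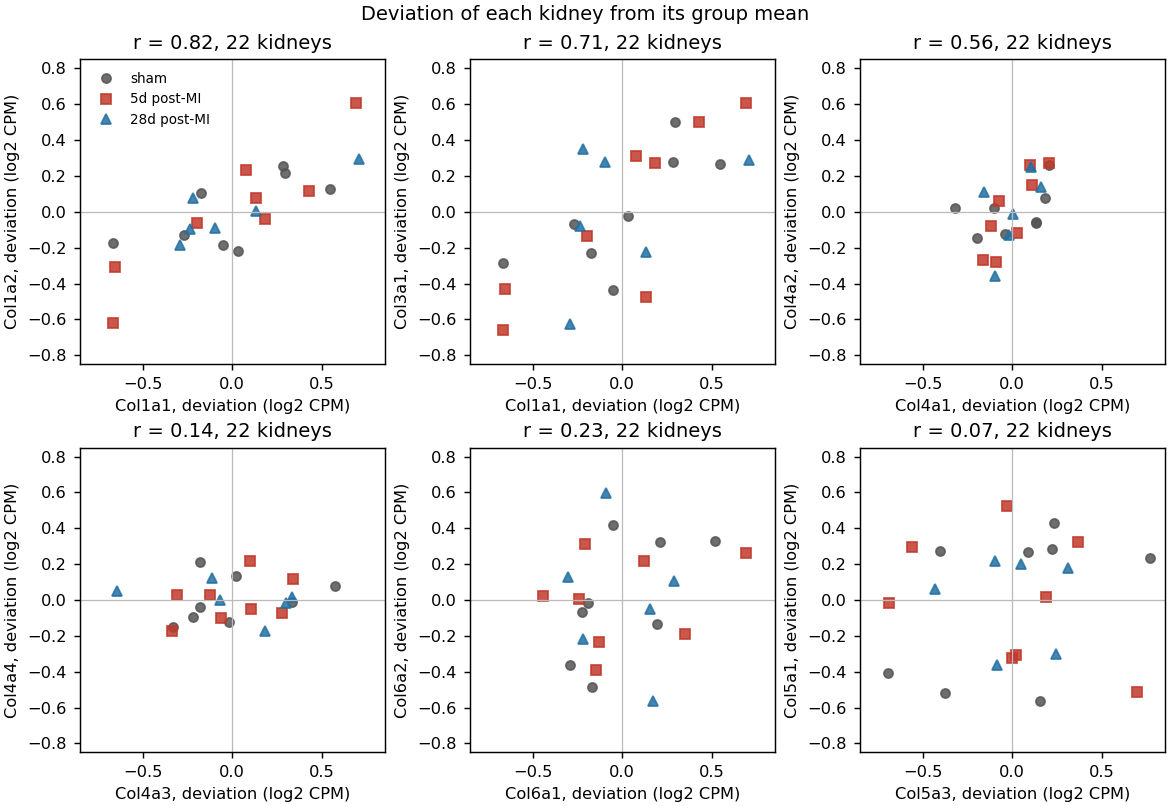
Deviation of each of 22 kidneys from its group mean in log2 CPM for 6 pairs of chains. Points of Col1a1 and Col1a2 lie along a rising line (r = 0.82), those of Col4a1 and Col4a2 do so over a narrower range (r = 0.56), and those of Col5a3 and Col5a1 do not (r = 0.07).

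Genes that act on collagen chains were examined in 6 lists with 60 genes, of which 36 had enough counts for a test. None of the 36 passed the test in any of the 3 comparisons in edgeR, where 0.0704%, 0.0235% and 0.415% of all genes did. At an unadjusted p under 0.05, 1 was higher and 2 were lower at 5d, 1 was higher and 1 lower at 28d, and 5 were higher and 1 lower at 28d against 5d. Over all genes 3.92% were higher and 3.97% lower at 5d, 4.45% and 4.23% at 28d, and 5.03% and 4.01% at 28d against 5d. The median log2 fold change at 5d was 0.02 for 15 genes of chain modification and folding, −0.14 for 4 genes of procollagen processing, 0.03 for 3 genes of cross-linking, −0.12 for 5 genes of degradation and its inhibitors, 0.05 for 3 collagen receptors and −0.11 for 6 fibril-binding proteoglycans, beside 0.00018 for all genes.

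P4ha1, a subunit of the enzyme that hydroxylates prolines of the chains, had the lowest p of these genes, at 28d against 5d. Its level was 40.4 ± 3.61 CPM in sham kidneys (SD, n = 8), 37.0 ± 6.03 CPM at 5d (SD, n = 8) and 45.5 ± 5.62 CPM at 28d (SD, n = 6), with a log2 fold change of 0.30 at 28d against 5d (SE 0.09, edgeR adjusted p = 0.200). P4hb, the other subunit of that enzyme, had the highest mean CPM of its list, which is not a level per length, and was at 0.01 at 5d and 0.12 at 28d (95% interval 0.03 to 0.21, edgeR adjusted p = 0.416). Pcolce, which enhances the cleavage of procollagen, was at −0.09 at 5d and 0.05 at 28d, and Loxl1, an enzyme that prepares fibrils and elastin for cross-linking, was at 0.03 and 0.09. Timp3, an inhibitor of matrix metalloproteinases, was at −0.12 at 5d and 0.07 at 28d. Itgb1, the beta subunit of collagen-binding integrins, was at 0.05 and 0.04, and Bgn, a proteoglycan that binds fibrils, at −0.08 and 0.08.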

How the data were processed

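The authors made MACE 3′ end libraries with unique molecular identifiers from kidney RNA, used Cutadapt for trimming, aligned the reads to a mouse genome and obtained counts per gene by HTSeq. Their methods name mm10, and their processing notes name mm39 with Bowtie2. Strand setting and annotation are not given in the sources used here. The deposited table holds raw counts without normalization, and values named tpm that are CPM, equal to counts scaled to each kidney's total within 5e-06 and not divided by length. Of 48 columns of values, 44 were used, and 4 were left out because 2 kidneys share a column name, so 22 of 24 kidneys were compared.

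Genes were kept by edgeR's filterByExpr (minimum 10 counts), which left 12780. Counts were normalized by TMM and tested with edgeR 4.0.16's quasi-likelihood F test with the 3 groups, two-sided, adjusted by Benjamini-Hochberg over all genes tested and called at an adjusted p under 0.05. The SE of a log2 fold change was derived from its F statistic. DESeq2 1.42.0 and limma 3.58.1 (voom) were alternatives, with other size factors, filters, covariates and omitted kidneys. In simulated counts for 5d against sham, edgeR called 181 of 200 genes changed by a log2 of 1 and 11 unchanged genes of 12780. Correlations used log2 CPM with a prior count of 2. Symbols and GRCm38 positions come from GENCODE M21, matched by Ensembl identifier (51948 of 56941), and promoter sequences from RefSeq. Within groups no kidney repeated another.

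The genes, lists and tests were chosen with earlier results of these data known. Genes of the lists are named if their unadjusted p was under 0.01 in a comparison or their mean CPM, which is not per length, was the highest of their list. Up to 3 collagen chain genes with the lowest p in each comparison are given by kidney. Others are given by their log2 fold change or range. Each value rests on 2280618 to 3786275 counts per kidney, and the limit of 3 counts for a 0 covers counting error only.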

Additional observations from a re-analysis of the deposited data

Results flagged for a closer look

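Among 87 groups of kidneys (29 collagen chain genes in 3 groups), 5 held a kidney far from the others, in 4 genes. Chance alone flags about 1 in 20 such groups. Col1a1 was 62.4 CPM in 28d replicate 1, against 30.9 to 41.7 CPM in the other 5 kidneys at 28d. Col27a1 was 27.9 CPM in 5d replicate 1, against 44.8 to 58.2 CPM in the other kidneys at 5d. Col8a1 was 3.25 CPM in 28d replicate 3, against 5.01 to 5.98 CPM in the others. Col7a1 was 4.19 CPM in 5d replicate 1, against 1.20 to 2.44 CPM, and 2.82 CPM in 28d replicate 1, against 1.43 to 1.63 CPM. Col7a1 had at most 12 counts in a kidney.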

How the results depend on the processing

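The 24 tested genes gave 72 values over the 3 comparisons and 2281 values under the alternatives, and no gene other than Col5a3 was called under any of them. For Col5a3 at 5d post-MI the call held with other size factors, other filters and DESeq2. Over all genes, 9 were called at 5d with other size factors and 9 with a mean CPM of 1 or more. Without a filter on low counts 80 were called, and by DESeq2 36. The call of Col5a3 was lost, and the count of called collagen chain genes fell from 1 to 0, with limma's voom (log2 fold change −0.98) and only the groups compared (−1.02). The same held with the white adipocyte score (−0.79), the immediate early score (−0.60) and without the 3 kidneys with adrenal markers over 50 CPM (−1.11). The last was an alternative chosen after seeing the data. Over all genes 5, 2, 1, 0 and 2 were called at 5d in this order, compared with 9 in the main fit. With the replicate number as a block Col5a3 was at −1.08 (adjusted p = 0.0592), and 0 collagen chain genes and 2 of all genes were called. The 18 pairs of kidneys with the same number had correlations between −0.13 and 0.09. Their median was 0.017, beside −0.0053 for the 142 other pairs. Counting error lowers such correlations, so they cannot tell whether the numbers pair the kidneys. Leaving out 1 kidney gave −1.18 to −0.88 and 0 to 1 called collagen chain genes, beside 1 to 38 called over all genes. The cause of these losses was not tested.

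Direction reversed for 3 values that were not called. Col27a1 at 5d was −0.44 and Col26a1 at 28d against 5d 0.13 with the immediate early score, and Col6a3 at 28d was 0.0040 with the white adipocyte score. A further 128 changes of sign lay within 1 standard error of 0 in both fits. Correlations of chain pairs kept their side of the threshold and their sign with a prior count of 0.5 and with log2 of the deposited tpm plus 1. Col5a3 rests on 5 to 43 counts per kidney, which limits its precision, and genes below 1 CPM could not be tested.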
